A study of Mus musculus with 6 samples.

Results

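The endoplasmic reticulum (ER) folding and degradation machinery was described here through 34 genes, chosen by name and role: 9 luminal chaperones and co-chaperones, 7 disulphide isomerases, 4 genes of the lectin cycle, 9 of ER-associated degradation, 1 translocon subunit and 4 stress sensors or their transcription factors. The array held 64 probes for 33 of the 34 genes, and none was named for Dnajb11. A probe entered the tests if 2 or more of the 6 arrays gave it a detection p-value below 0.05, that is, a signal above background. By that rule 45 probes of 29 members were tested, out of 18076 probes and 9754 genes in all. Canx, Uggt1, Derl1 and Eif2ak3 were not above background on any array, so the lectin chaperone calnexin, the glucosyltransferase that senses misfolded glycoproteins, derlin 1 and the PERK kinase are without a tested value.

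The cells were 4T1ch9, a single clone derived from the Balb/c mouse mammary carcinoma line 4T1. They had received lentivirus with a short hairpin RNA (shRNA) against Stc1, which encodes the secreted glycoprotein stanniocalcin 1, or with a non-targeting shRNA. The STC1 virus was given at 6 µl (2 arrays) or 18 µl (2 arrays), and the non-targeting control virus (NT) at 6 µl (1 array) or 18 µl (1 array), named NT replicates 1 and 2. All arrays, controls included, came from transduced cells kept in puromycin for 5 to 6 days. No untransduced cells were analysed here, and which cultures gave the arrays of a group is not stated, so p-values measure a spread that may be technical.

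Proteins that enter the secretory pathway fold in the ER lumen with the help of the Hsp70 chaperone BiP, disulphide isomerases and the calnexin and calreticulin lectins. Chains that fail to fold are recognised by mannose-trimming lectins, moved back to the cytosol and degraded by the proteasome. When unfolded protein builds up, the sensors IRE1, ATF6 and PERK start the unfolded protein response. IRE1 splices Xbp1 mRNA to yield an active factor. ATF6 and XBP1 then raise transcription of many chaperone, isomerase and degradation genes, and PERK slows translation and favours ATF4. In the mammary gland the response serves cells that secrete much protein, and IRE1 and XBP1 have been linked to the growth of breast carcinoma.

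Of the 34 genes, 12 carry a promoter element known from ER stress genes, and examples are shown here because they mark these members by sequence. RefSeq promoter windows (GRCm38.p6, 250 bases before to 50 bases after the start) were present for 30 members. The ER stress response element (ERSE, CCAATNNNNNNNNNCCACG) was found on either strand in 8 of the 30 (26.7%), against 0.137% of all 27025 genes with a window. The related ERSE-II (ATTGGNCCACG) was found in 2 members (6.67%, against 0.0444% of all genes) and the element UPRE (TGACGTGG) in 2 (6.67%, against 0.714%). Since the elements are known from ER stress genes and the members were chosen by role, these higher shares are a description and not a finding. No match overlapped another. Examples are given 5′ to 3′ on the gene's own strand, with the motif in capitals and 10 bases on each side.
Hspa5 ERSE, chr2:34772015-34772053, plus strand: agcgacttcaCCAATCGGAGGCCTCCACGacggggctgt
Hsp90b1 ERSE, chr10:86705628-86705666, minus strand: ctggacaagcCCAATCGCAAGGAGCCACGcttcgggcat
Hsp90b1 ERSE read on the other strand, chr10:86705523-86705561, minus strand: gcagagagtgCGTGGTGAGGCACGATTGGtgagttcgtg
Pdia6 ERSE, chr12:17266481-17266519, plus strand: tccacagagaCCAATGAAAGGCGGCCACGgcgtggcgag
Syvn1 ERSE, chr19:6046522-6046560, plus strand: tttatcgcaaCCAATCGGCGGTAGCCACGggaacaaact
Herpud1 ERSE-II, chr8:94386367-94386397, plus strand: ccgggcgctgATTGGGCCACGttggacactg
Txndc5 UPRE, chr13:38528035-38528062, minus strand: gcctcgccgcTGACGTGGcgctagccgc
The other members with ERSE were Calr, Canx, Creld2 and Dnajc3, the other with ERSE-II was Dnajb11, and the other with UPRE was Vcp.

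Raw bead signal averaged 310.6 and 271.9 on the STC1 6 µl arrays, 253.6 and 254.2 at 18 µl, and 228.3 and 253.1 on the NT arrays. The STC1 6 µl arrays were thus the brightest, and brightness cannot be told apart from group. The 6 arrays found 16252 to 17507 of 45281 probes above background, most on the STC1 6 µl arrays (17406 and 17507). The hairpin's target was checked first. Stc1 stood at 7.68 and 7.87 (6 µl) and at 8.05 and 7.74 (18 µl) on the STC1 arrays, against 9.05 and 9.32 on the NT arrays, in normalised log2 intensity, and all 4 STC1 arrays lay below both NT arrays. This was a 2.54-fold fall (log2 difference -1.35 with SE 0.14, limma adjusted p = 0.0025). Epithelial keratins Krt8, Krt18 and Krt7 were above background on all 6 arrays and Cdh1 on 4, while Epcam, Krt19 and Krt14 were on none. No leukocyte marker of 5 with a probe and no endothelial marker of 6 was above background on all arrays. Of these, Cd3e was above background on both STC1 18 µl arrays only and Kdr on 4 arrays, the others on none. Of 7 fibroblast markers, Col1a1, Col1a2, Dcn, Lum and Fap were above background on none. Pdgfra was above background on all arrays. Pdgfrb was at background on both NT arrays and above it on all 4 STC1 arrays, where it was at least 1.48-fold higher. It entered the tests only through the STC1 arrays and was dim (4.36 to 5.57 in log2). Its p-value (limma adjusted p = 0.0201) is therefore not read as support. The sum of the fibroblast list was mostly Pdgfra, at 9.72 to 10.44 in log2, with the other genes at 5.57 or lower. This sum (normalised linear intensity) ranged from 1024.6 to 1533.5 on STC1 arrays and from 971.9 to 1134.0 on NT arrays. It is therefore close to a reading of a single gene, and its part in the results below was not tested. In bulk RNA, fewer cells of a type and less RNA per cell cannot be told apart.

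Under the STC1 hairpin 2 of the 29 members tested passed, both lower: the disulphide isomerase gene Pdia4 and the transcription factor gene Xbp1. Where a member had several tested probes, the one with the greatest mean intensity stood for the gene. A gene passed where its limma p-value, adjusted over all 18076 probes tested (Benjamini-Hochberg, two-sided), was under 0.05. By that rule 2 of 29 members fell (6.9%) and 0 rose, while 3.72% of all 9754 genes tested fell and 4.45% rose, 8.17% in all. The members' share is near that background. An unadjusted p under 0.05 was reached by 11 of the 29 members and by 2585 of all 9754 genes tested. Without NT replicate 1 no member passed (207 probes in all, against 1407 with it), and without NT replicate 2 Pdia4 alone passed (220 probes in all).

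The median log2 difference (mean of both STC1 groups minus NT) was -0.06 over the 29 members, 18 of them negative, and 0.03 over all genes tested. This sign depended on how arrays were scaled. When arrays were brought to a common median and not quantile-normalised (median scaling), the median of all probes moved to 0.149, against 0.014, and that of members to 0.11. Then 7 of the 18 negative members were positive, namely Hsp90b1, Pdia3, Pdia6, Creld2, Calr, Sel1l and Ern1, each within 0.12 of 0 under quantile normalisation. Of all probes called, 48.9% were higher under quantile normalisation and 80.8% under median scaling. Pdia4 and Xbp1 passed as lower in both, at -0.89 and -0.47 under median scaling, where Ganab also rose.

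**Figure D1:**
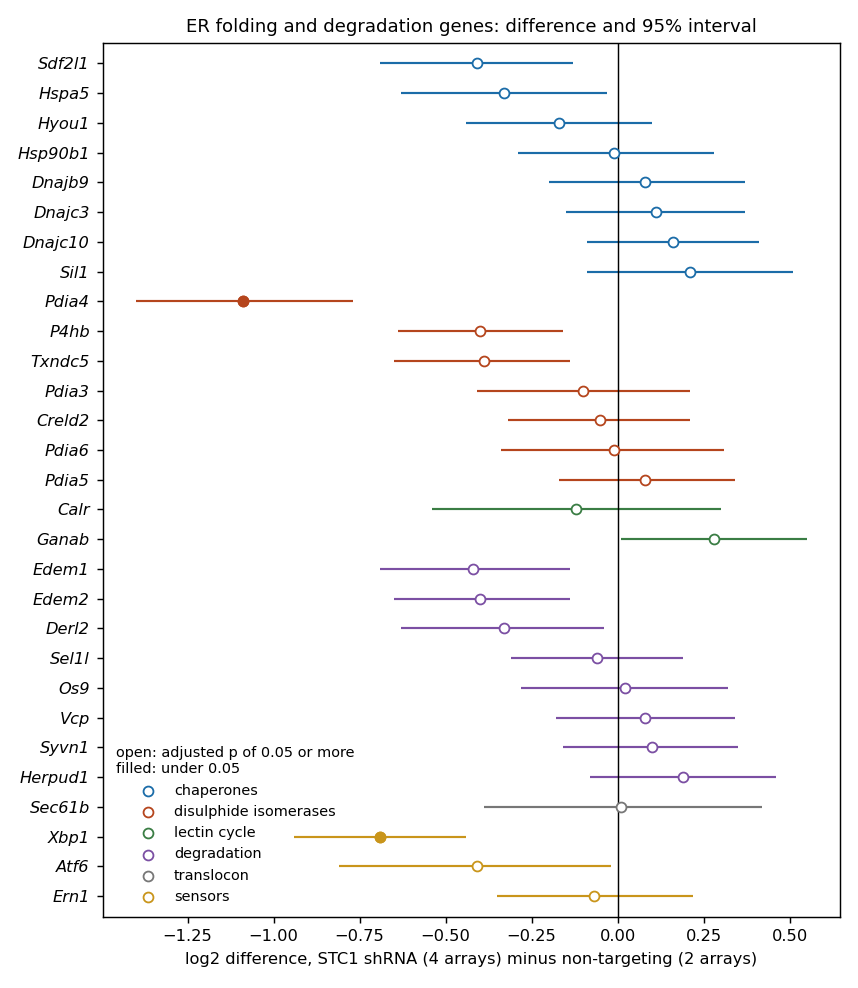
Log2 difference between 4 STC1 arrays and 2 NT arrays for each of the 29 members tested (points) with its 95% interval (lines), by role and in colour. Pdia4 at -1.09 and Xbp1 at -0.69 are the filled points that passed, and the other members lie between -0.42 and 0.28.

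The 95% interval of the difference lay within 0.5 of 0 on the log2 scale (1.41-fold) for 16 of 29 members, and within 1 of 0 for 28, with Pdia4 as the exception. Standard errors ran from 0.11 to 0.18. The NT arrays differed from each other by a median of 0.11 over the members (absolute log2 difference), against 0.13 over all genes tested.

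Disulphide isomerases, which form and reshuffle the cysteine bonds of secreted proteins, held the largest difference. Pdia4, an isomerase of the ER lumen also called ERp72, stood at 8.66 and 8.62 (6 µl) and at 8.22 and 8.55 (18 µl) on the STC1 arrays, against 9.75 and 9.45 on the NT arrays (normalised log2 intensity). All 4 STC1 arrays were below both NT arrays, by more than the NT arrays differed from each other. The level was 2.12-fold lower (log2 difference -1.09, SE 0.14, 95% interval -1.40 to -0.77, adjusted p = 0.00563, n = 4 against 2). It fell at each volume, by 0.96 on the log2 scale at 6 µl (adjusted p = 0.0218) and by 1.21 at 18 µl (adjusted p = 0.00881), where both comparisons share the NT arrays. Without NT replicate 1 the adjusted p was 0.0502 and the difference -0.94, so the call ended there by a narrow margin.

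P4hb, the founding disulphide isomerase and a subunit of collagen prolyl hydroxylase, came nearest to passing among the other isomerases. It stood at 11.55 and 11.57 (6 µl) and at 11.44 and 11.41 (18 µl) on the STC1 arrays, against 11.85 and 11.94 on the NT arrays. The groups did not overlap, but the difference of -0.40 (SE 0.11, 95% interval -0.64 to -0.16) had an adjusted p of 0.0544. Txndc5, an isomerase with thioredoxin domains, was at -0.39 (adjusted p = 0.0668), also with all STC1 arrays below both NT arrays. Pdia3, the calnexin and calreticulin partner, was at -0.10, Creld2 at -0.05, Pdia6 at -0.01 and Pdia5 at 0.08, each with overlapping groups. Dimmer probes of Creld2, Pdia6 and Pdia5 were at -0.20, -0.04 and 0.10. The median of the 7 isomerases was -0.10 (0.09 under median scaling).

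Among the sensors, Xbp1, whose mRNA is the substrate of IRE1, stood at 9.74 and 9.73 (6 µl) and at 9.54 and 9.67 (18 µl) on the STC1 arrays, against 10.39 and 10.33 on the NT arrays. Arrays within each group lay close together and the groups did not overlap. Xbp1 fell 1.61-fold (log2 difference -0.69, SE 0.11, 95% interval -0.94 to -0.44, adjusted p = 0.011), at 6 µl by 0.63 (adjusted p = 0.0343) and at 18 µl by 0.75 (adjusted p = 0.0183). Where its probe lies relative to the spliced stretch is not known here, so the value is read as neither the spliced nor the unspliced form. The call was lost without NT replicate 1 (adjusted p = 0.0933) and without NT replicate 2 (adjusted p = 0.0665), with differences of -0.66 and -0.72.

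Atf6, the sensor cleaved in the Golgi to release a transcription factor, was dim. Its brighter probe stood at 4.90 and 4.33 (6 µl) and at 4.91 and 4.61 (18 µl) on the STC1 arrays, against 5.19 and 5.01 on the NT arrays, and was above background on 2 of 4 STC1 arrays and on both NT arrays. It did not pass (log2 difference -0.41, SE 0.17, adjusted p = 0.177), and its second probe was at -0.16. Without background correction the difference of the brighter probe was -0.23. Ern1, which encodes IRE1, was at -0.07 (adjusted p = 0.778) with overlapping groups.

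**Figure D2:**
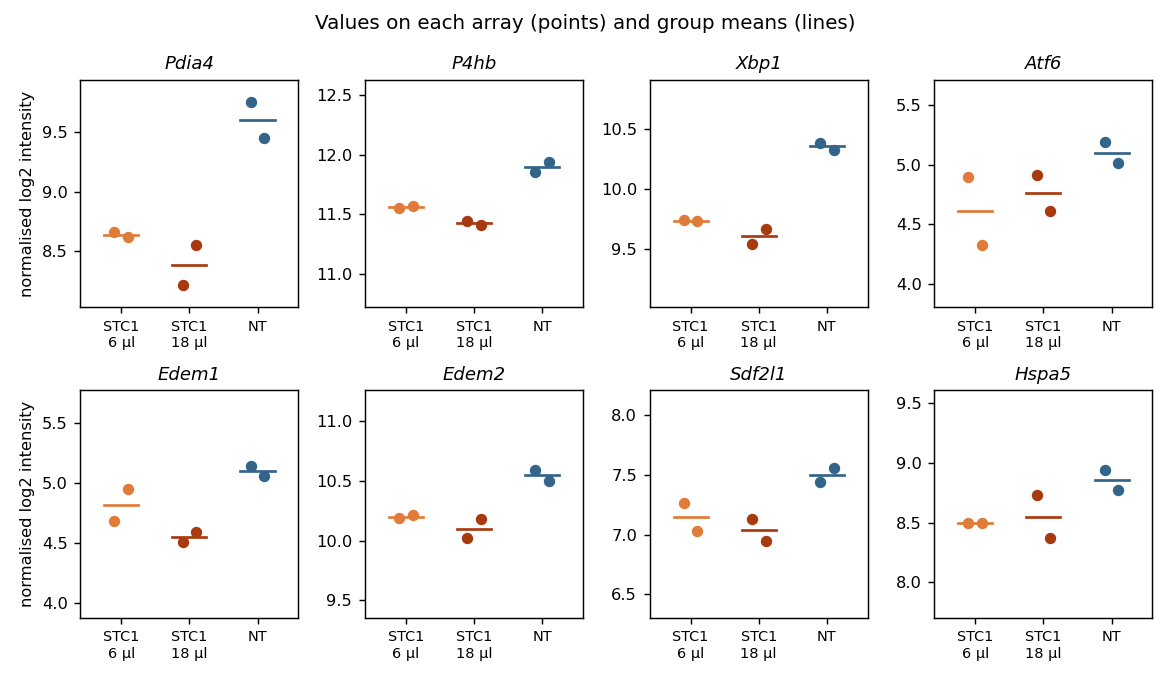
Normalised log2 intensity (vertical axes, all of the same length in log2 units) of 8 members on the STC1 6 µl, STC1 18 µl and NT arrays. Points are single arrays and lines are group means. All 8 are among the 10 of 29 members (34.5%, against 16% of all genes tested) with all 4 STC1 arrays below both NT arrays. The pattern seen in each panel therefore follows from the choice of genes. The distance is widest for Pdia4 and Xbp1. Ganab, Calr and Sec61b, with array values in the text, are not shown.

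None of the 8 chaperones tested passed, and their median was 0.04 (0.22 under median scaling). Sdf2l1, a cofactor of BiP and its J-domain partners, had the smallest p-value. It stood at 7.26 and 7.03 (6 µl) and at 7.13 and 6.95 (18 µl) on the STC1 arrays, against 7.44 and 7.56 on the NT arrays. The groups did not overlap, but the difference of -0.41 (SE 0.12, 95% interval -0.69 to -0.13) had an adjusted p of 0.0797.

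Hspa5, which encodes BiP, the master chaperone of the lumen, stood at 8.50 and 8.50 (6 µl) and at 8.73 and 8.37 (18 µl) on the STC1 arrays, against 8.94 and 8.77 on the NT arrays. The highest STC1 array, at 18 µl, lay just below the lower NT array, and the difference of -0.33 (SE 0.13, 95% interval -0.63 to -0.03) did not pass (adjusted p = 0.16). Hsp90b1, the luminal Hsp90 also called GRP94, was at -0.01 with a 95% interval from -0.29 to 0.28. Hyou1, a nucleotide exchange factor for BiP, was at -0.17, and Sil1, another exchange factor, at 0.21. The J-domain partners of BiP did not pass by their brightest probes, with Dnajb9 at 0.08 (-0.06 by its other probe), Dnajc3 at 0.11 and the reductase Dnajc10 at 0.16.

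Of the lectin cycle, which retains glycoproteins until they are folded, Calr and Ganab were tested. Ganab, the catalytic subunit of glucosidase II, stood at 10.65 and 10.44 (6 µl) and at 10.53 and 10.68 (18 µl) on the STC1 arrays, against 10.34 and 10.25 on the NT arrays. All STC1 arrays lay above both NT arrays, but the difference of 0.28 (SE 0.12) did not pass (adjusted p = 0.181), and its other probes were at 0.21 and -0.13. Calr, the lectin chaperone calreticulin, stood at 8.78 and 8.25 (6 µl) and at 8.20 and 8.48 (18 µl) on the STC1 arrays, against 8.76 and 8.34 on the NT arrays. Arrays within each group differed by more than the group means, and the difference of -0.12 (SE 0.18, adjusted p = 0.72) became 0.06 under median scaling, 0.09 without NT replicate 1 and 0.01 without STC1 6 µl replicate 2.

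None of the 8 degradation genes passed, and their median was -0.02 (0.15 under median scaling). The EDEM proteins, which direct misfolded glycoproteins to degradation, had the smallest p-values. Edem2, which starts mannose trimming of misfolded chains, stood at 10.19 and 10.21 (6 µl) and at 10.02 and 10.18 (18 µl) on the STC1 arrays, against 10.59 and 10.50 on the NT arrays. The groups did not overlap, and the difference of -0.40 (SE 0.11, 95% interval -0.65 to -0.14) had an adjusted p of 0.0644. Its 3 dimmer probes were at -0.45, -0.60 and -0.64, and the last fell past the threshold (adjusted p = 0.0328). That probe stood at 5.45 and 5.62 (6 µl) and at 5.53 and 5.12 (18 µl) on the STC1 arrays, against 6.04 and 6.10 on the NT arrays.

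Edem1 was dim, at 4.68 and 4.95 (6 µl) and at 4.51 and 4.59 (18 µl) on the STC1 arrays, against 5.14 and 5.06 on the NT arrays. It was not above background on either 18 µl array, where it was at least 1.29-fold lower than on NT arrays (adjusted p = 0.0652). Over both volumes the difference was -0.42 (SE 0.12, adjusted p = 0.0709), and it was nearer to 0 without background correction, at -0.21 (limma adjusted p = 0.145). Derl2, a membrane protein that helps move misfolded chains to the cytosol, was at -0.33 (adjusted p = 0.151), with its second probe at -0.09.

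No gene of the ubiquitin ligase complex passed. Syvn1, the ligase HRD1, was at 0.10 (95% interval -0.16 to 0.35) and Sel1l, its adaptor, at -0.06 (-0.31 to 0.19, with its second probe at -0.27). Os9, the lectin that hands over glycoproteins, was at 0.02, and Vcp, the ATPase that extracts them, at 0.08. Herpud1, an organiser of the ligase complex, was at 0.19 with all STC1 arrays above both NT arrays, and its second probe was at 0.38 (adjusted p = 0.342 and 0.125). The translocon subunit Sec61b stood at 5.78 and 6.18 (6 µl) and at 5.97 and 6.45 (18 µl) on the STC1 arrays, against 6.23 and 5.93 on the NT arrays, with overlapping groups and a difference of 0.01 (SE 0.18), which was -0.14 without NT replicate 2. Its second probe was at -0.24.

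**Figure D3:**
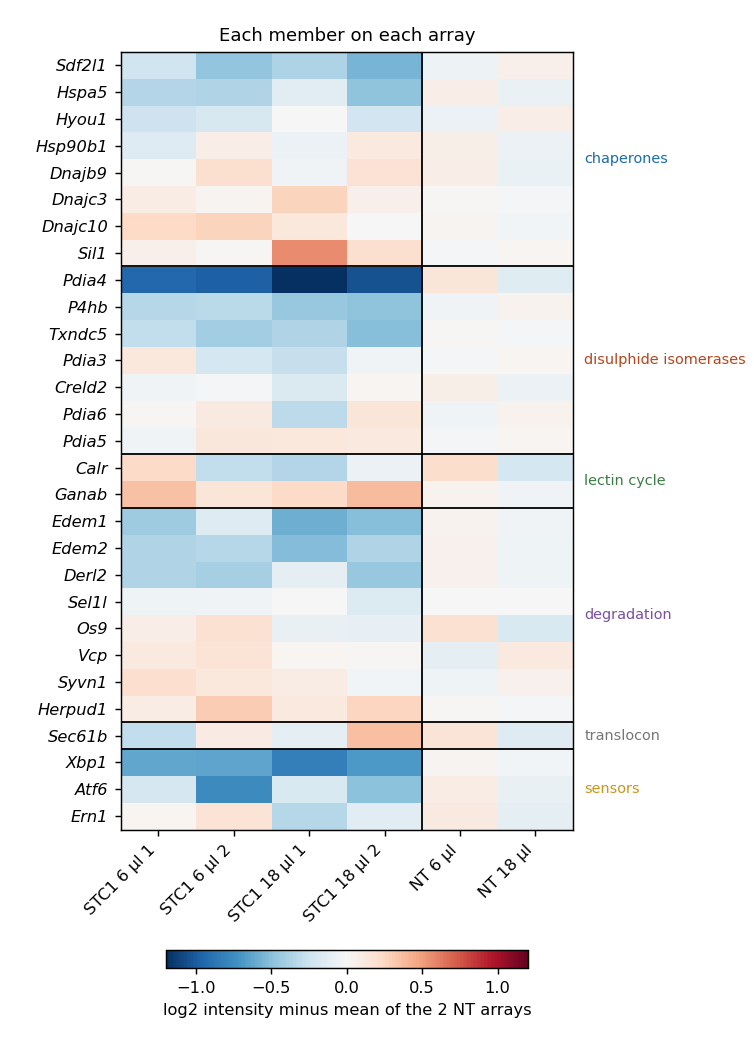
Log2 intensity minus the mean of the 2 NT arrays (colour, blue below and red above) for each of the 29 members (rows, by role) on each array (columns). Pdia4 and Xbp1 are blue on all 4 STC1 arrays, while most chaperone and degradation rows are pale or mixed.

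Counted without a threshold on p, 10 of 29 members (34.5%) had all 4 STC1 arrays below both NT arrays and 3 (10.3%) had all 4 above. Over all genes tested these shares were 16% and 21.9%, or 37.9% on either side. The 10 were Pdia4, P4hb, Txndc5, Xbp1, Atf6, Hspa5, Sdf2l1, Edem1, Edem2 and Derl2, and the 3 were Dnajc3, Ganab and Herpud1. Under median scaling the counts turned round, with 3 members below (10.3%) and 8 above (27.6%), against 4.91% and 32.3% of all genes tested. The counts are a description, since members share the same 6 arrays. Of 5 members with an adjusted p from 0.05 to under 0.1, the 4 detected on all arrays (P4hb, Txndc5, Edem2 and Sdf2l1) were called lower with the authors' deposited values in place of the background-corrected ones. In that setting 6 members fell, 0 rose and the median of members was again -0.06, while over all 18076 probes 1113 fell and 1175 rose, against 719 and 688 with background correction. Under median scaling none of the 4 passed, and their differences were nearer to 0, at -0.20 for P4hb (adjusted p = 0.436), -0.18 for Txndc5, -0.19 for Edem2 (adjusted p = 0.464) and -0.24 for Sdf2l1 (adjusted p = 0.351).

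Probes of the same gene did not always give the same answer. Of 12 members with several tested probes, 8 had probes of 1 sign and 4 did not. Dnajc10 was the widest, with 0.16 for its brightest probe, -0.05 for another and 0.59 for the third. The third rose past the threshold (adjusted p = 0.0249) and stood at 6.51 and 6.55 (6 µl) and at 6.84 and 6.68 (18 µl) on the STC1 arrays, against 5.95 and 6.16 on the NT arrays. Over all 45 member probes 3 fell and 1 rose (8.89%), while 7.78% of all 18076 probes passed, 3.98% lower and 3.81% higher.

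**Figure D4:**
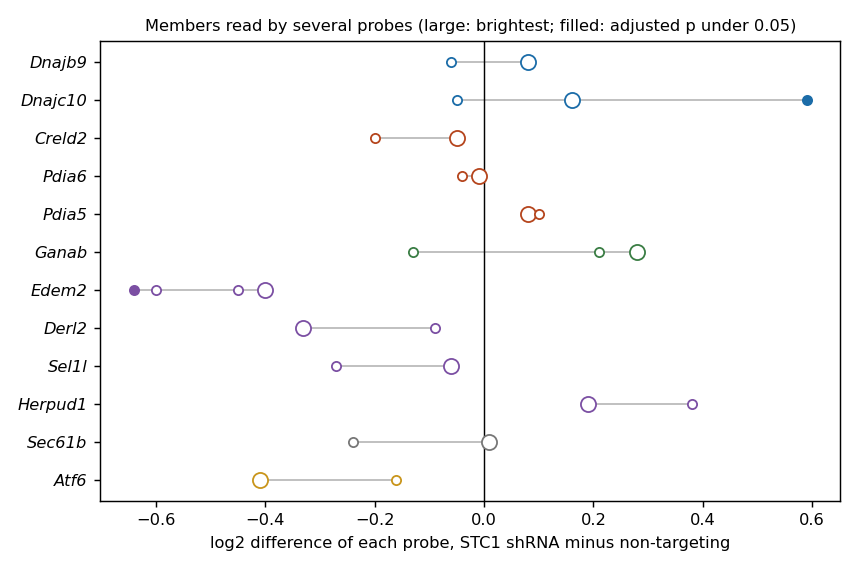
Log2 difference (STC1 minus NT) of each tested probe for the 12 members with several probes. Large circles are the brightest probe and filled circles passed. The 4 Edem2 probes lie between -0.64 and -0.40, while the 3 Dnajc10 probes run from -0.05 to 0.59.

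The response was compared between virus volumes. At 6 µl, 2 of 29 members fell and 0 rose, with 1.74% of all genes lower and 2.16% higher. At 18 µl, 2 fell and 0 rose, with 2.34% of all genes lower and 2% higher. Both comparisons use the same NT arrays, and in each the members were Pdia4 and Xbp1. Neither passed at 6 µl without NT replicate 1 or 2 or STC1 6 µl replicate 1 or 2 (0 members each). At 18 µl 0 members passed without NT replicate 1, and 1 without NT replicate 2 or STC1 18 µl replicate 1 or 2. The difference between the STC1 arrays at 18 µl and those at 6 µl uses no NT array. Its p-values do, because the spread was estimated from all 6 arrays. There limma called 0 of 29 members, as it called 0 of 9754 genes (0%). At an unadjusted p under 0.05, 0 members and 535 genes were counted. The members' differences between volumes ran from -0.33 (Ern1) to 0.34 (Sil1), with a smallest adjusted p of 0.723. The test of whether the STC1 effect differed between volumes, each against the NT array of its own volume, called 0 members and 0 genes (0%), with 0 members and 300 genes at an unadjusted p under 0.05.

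Members with and without a promoter match were set side by side. The 10 tested members with ERSE, ERSE-II or UPRE ran from -0.39 (Txndc5) to 0.19 (Herpud1), with a median of -0.01 and none called. The 16 tested members with a window and no match ran from -1.09 to 0.28, with a median of -0.08, and they include Pdia4 and Xbp1. Hyou1, Sil1 and Atf6 had no window here. Absence of a match says only that these letters are not in the window.

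Other genes of the ER were read from lists made by role. Of 59 such genes 51 were tested, and 1 fell and 1 rose, with a median of -0.01. Among all genes tested 3.72% fell and 4.45% rose, so these counts do not exceed the background. Txndc12, a small thioredoxin-like ER oxidoreductase, fell 1.73-fold. It stood at 9.16 and 9.13 (6 µl) and at 8.82 and 9.11 (18 µl) on the STC1 arrays, against 9.78 and 9.90 on the NT arrays (difference -0.79, SE 0.12, adjusted p = 0.0109). Prkcsh, the partner subunit of Ganab in glucosidase II, rose 1.36-fold. It stood at 11.55 and 11.50 (6 µl) and at 11.51 and 11.57 (18 µl) on the STC1 arrays, against 11.08 and 11.08 on the NT arrays (difference 0.45, SE 0.11, adjusted p = 0.0395).

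Both calls were lost when any of several arrays was left out. Without single arrays the differences ran from -0.86 to -0.71 for Txndc12 and from 0.43 to 0.46 for Prkcsh. Over all 15 alternatives they ran more widely, from -0.86 to -0.58 for Txndc12 and from 0.23 to 0.64 for Prkcsh. Txndc12 did not pass without NT replicate 1 (adjusted p = 0.0588), NT replicate 2 (0.0823) or STC1 6 µl replicate 2 (0.0504). Prkcsh did not pass in 7 of 15 alternatives, among them without NT replicate 1 (adjusted p = 0.195) or 2 (0.171), and its second probe was at 0.01. By role, 1 of 15 folding genes fell, 1 of 18 translocation and glycosylation genes rose, and none of 11 further degradation genes or 7 regulators passed by the brightest probe. A dimmer probe of Ssr1, a subunit of the translocon-associated complex, also rose past the threshold (0.56, adjusted p = 0.0427), while its other tested probes were both at 0.07. It was picked out after its values were seen. The nearest were the degradation lectin gene Erlec1 (0.39, adjusted p = 0.0726) and the dim ubiquitin-conjugating enzyme gene Ube2g2 (-0.47, adjusted p = 0.0918, above background on 3 arrays). Among regulators they were the membrane-bound factor genes Creb3l2 (-0.64, adjusted p = 0.0531) and Creb3 (0.34, adjusted p = 0.0959). A dimmer Creb3l2 probe fell past the threshold (-0.60, adjusted p = 0.037), and the other Creb3 probe was at 0.01.

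The ATF4 branch, reached through PERK and through other kinases, was read beside them. By the brightest probes 1 of 8 genes tested fell, against 3.72% of all genes tested, and the list's median was -0.14. That gene was Chac1, which encodes a glutathione-degrading enzyme. Chac1 stood at 8.35 and 8.44 (6 µl) and at 9.01 and 8.08 (18 µl) on the STC1 arrays, against 10.05 and 9.96 on the NT arrays. All STC1 arrays were below both NT arrays, a 2.90-fold fall (log2 difference -1.53 with SE 0.22, adjusted p = 0.00759, and 0.0577 without NT replicate 1). Asns, the asparagine synthetase gene, was at -0.65 by its brightest probe (adjusted p = 0.0517), and both of its other probes fell, by 0.79 (adjusted p = 0.0407) and by 0.81 (adjusted p = 0.0184). Asns was picked out after its values were seen. The rest of the list did not pass and went both ways by the brightest probes. Atf4 was at -0.41 (adjusted p = 0.102), Ppp1r15a at -0.19, Sesn2 at -0.08 and Trib3 at -0.06. Atf3 was at 0.01 and Ddit3 at 0.19, with the other Ddit3 probe at 0.38.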

How the data were processed

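RNA from 6 cell samples was hybridised to Illumina bead arrays. The deposited table of unprocessed values gives a linear bead intensity per probe, not normalised between arrays, and a detection p-value, per the file headers. The deposited processed table gives log2 values of unstated scale, direction and centring. Each column had a median of 5.777 and differed from the quantile-normalised log2 raw intensity by a median of at most 0.00154, which settles the scale. Scanner software is not given in the sources used here.

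Intensities were background-corrected, quantile-normalised and log2-transformed with neqc (offset 16) of limma 3.58.1 in R 4.3.3. Quantile normalisation removes a shift shared by most transcripts, and the offset shrinks folds of dim probes. Gene symbols came from the platform annotation: of 34903 probes listed, 34885 had 1 symbol and 18 several, 10378 were unnamed here, and 34807 identifiers matched the GRCm38.p6 gene table. limma's lmFit and eBayes were fitted with 1 mean per group (3 residual and 5.66 prior degrees of freedom). In data simulated for STC1 against NT over 18076 probes, 40% of changes of 0.5 and 100% of changes of 1 (log2) were recovered, and 21 of the 191 probes called were unchanged ones.

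For a group at background on each of its arrays a fold is a bound, in which a dim array counts at its own signal or at the least signal that rose above background there, whichever is higher. Stc1 was named, with each member. Array values were given for members that passed or had the 2 smallest p-values of their role, and in other lists for genes that passed, or else the 2 with the smallest p are named. Members and lists were chosen with earlier results of these data known. The number of arrays limits precision. No chip or scan batch was named in these sources. Alternatives tried were no background correction, median scaling, the authors' values, other detection filters, 2 groups, volume or replicate as a block, probe averages and leaving out each array.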

Additional observations from a re-analysis of the deposited data

How the results depend on the processing

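Pdia4 and Xbp1 kept their negative sign in all 15 alternatives, at -1.23 to -0.89 and -0.72 to -0.47. No member rose without any one array, and 0 to 2 fell, at both volumes together and at each. Over all probes the calls then ran from 207 to 1479 (STC1 against NT), 18 to 895 (6 µl), 89 to 454 (18 µl), 0 to 1 (18 against 6 µl) and 0 to 1 (difference of effects), and the members' medians from -0.12 to -0.01, from -0.10 to 0.02 at 6 µl and from -0.13 to -0.07 at 18 µl. A lone array left in a group is assumed to vary like the others. With no background correction 2277 probes passed (1566 at 6 µl, 1443 at 18 µl) and 6 members fell (5 at 18 µl). With the authors' values these were 2288, 1569, 1446, 6 and 5. Without the filter on dim probes they were 787, 277 and 385, with 1 member lower at 6 µl. With detection on all 6 arrays 5 members fell, as did 868 of 14250 probes (861 rose). With probe averages 5 fell at both volumes together and 5 at 18 µl, with medians of -0.11 and -0.14, and 466 of 9754 genes fell (518 rose).

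Median scaling moved the median of all probes to 0.149, against 0.014 in the main setting. It called 2528 probes, 80.8% of them higher (48.9% in the main setting), 2985 at 6 µl, 121 between volumes and 2 for the difference of effects. The members' median was then 0.11 (0.22 at 6 µl, -0.02 at 18 µl), which is -0.04 relative to that shift. Ganab rose (0.50, adjusted p = 0.0375), so 1 member was higher, and at 6 µl 2 were higher and 1 lower. Calr was at 0.06 there, and ran from -0.33 to 0.09 without single arrays (0.09 without NT replicate 1, 0.01 without STC1 6 µl replicate 2). Sec61b ran from -0.14 to 0.17 without single arrays (-0.14 without NT replicate 2, -0.09 without STC1 6 µl replicate 2, -0.11 without STC1 18 µl replicate 2) and was at -0.11 with probe averages. The cause of these moves was not tested. Same-numbered arrays did not deviate together (correlations of -0.02, -0.11 and 0 between the groups). The NT replicates differ in virus volume and the STC1 replicates of a group do not. With so few arrays this check cannot tell whether same-numbered arrays share a culture or a batch. With the replicate block 1295 probes and the same 2 members passed in STC1 against NT, 1 member fell at 6 µl, and Prkcsh did not pass (adjusted p = 0.0584). Members without a detected probe have no value, and dim probes such as Atf6 and Edem1 are limited by background.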
